A study of Mus musculus with 6 samples.

Results

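The 9 genes described here encode 6 STAT transcription factors (Stat2, Stat3, Stat4, Stat5a, Stat5b and Stat6) and 3 SOCS inhibitors (Socs1, Socs2 and Socs3). They were taken by their GENCODE symbols from the 49585 genes of the count tables. RNA was sequenced from tumoroids, which are three-dimensional cultures of mouse intestinal adenoma cells in Matrigel. All cultures had the C57BL/6 strain background, carried APC min/+, a truncating Apc allele that causes intestinal adenomas, and Villin-Cre, a Cre recombinase driven by a promoter of the intestinal epithelium. The 3 knock-out libraries had the genotype IKKa FL/FL and the 3 wild-type libraries IKKa +/+, where IKKa is the kinase encoded by Chuk. All were grown in a medium with Noggin, R-spondin, EGF, basic FGF and a ROCK inhibitor, with no added interleukin or interferon listed, and the labels give neither the age nor the number of mice.

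STAT proteins carry signals from cytokine receptors to the nucleus. Binding of a cytokine brings receptor-bound JAK kinases together, the kinases phosphorylate the receptor and the STAT, and the STAT dimer binds DNA and switches on target genes. Genes of the SOCS family are often among those targets, and their proteins bind the receptor or the kinase and recruit a ubiquitin ligase through the SOCS box, which closes a negative feedback loop. In the intestinal epithelium Stat3 is known for its part in regeneration and tumour growth downstream of the Il6 and Il22 families, Stat6 for the response to Il4 and Il13, Stat2 for the response to type I and type III interferons, and Stat5a and Stat5b for responses to growth hormone and related cytokines. Stat4 is best known from lymphocytes.

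STAT dimers bind palindromes of the form TTCNNNGAA, or the same half-sites with 4 spacer bases in sites favoured by Stat6, and the complex of Stat2 with Irf9 binds the interferon response element, whose core was taken as GAAA, 2 bases of any kind and GAAA. These motifs were searched on both strands in RefSeq windows of 300 bases (GRCm38.p6) from 250 bases before to 50 bases after each start site, and 8 of the 9 genes had an entry, all but Socs2. TTCNNNGAA was present in 8.3% of all 32851 windows, the palindrome with 4 spacer bases in 6.95% and the interferon response core in 3.44%. The 250 bases before the start site are shown for the 3 members whose first window held one of them, 5′ to 3′ on the strand of the gene, with the matches in capitals. Socs3 is from chr11:117969367-117969616 (minus strand), Socs1 from chr16:10785537-10785786 (minus strand) and Stat2 from chr10:128270248-128270497 (plus strand).
Socs3: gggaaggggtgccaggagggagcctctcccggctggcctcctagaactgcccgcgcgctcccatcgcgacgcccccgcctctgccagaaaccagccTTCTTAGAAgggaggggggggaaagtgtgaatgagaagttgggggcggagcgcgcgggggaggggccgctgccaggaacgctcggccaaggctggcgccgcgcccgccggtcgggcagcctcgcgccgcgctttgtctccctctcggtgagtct
Socs1: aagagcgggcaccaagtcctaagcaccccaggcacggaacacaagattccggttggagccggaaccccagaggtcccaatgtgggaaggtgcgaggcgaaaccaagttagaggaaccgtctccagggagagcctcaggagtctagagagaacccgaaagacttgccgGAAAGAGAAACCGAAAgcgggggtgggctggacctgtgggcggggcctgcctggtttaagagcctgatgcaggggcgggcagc
Stat2: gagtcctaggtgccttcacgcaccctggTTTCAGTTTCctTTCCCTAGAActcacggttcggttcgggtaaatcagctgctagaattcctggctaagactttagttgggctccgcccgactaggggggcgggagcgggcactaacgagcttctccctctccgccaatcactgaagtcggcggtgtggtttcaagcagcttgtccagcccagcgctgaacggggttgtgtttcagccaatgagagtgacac

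In the Socs3 window the match is TTCTTAGAA, which begins at position -154 relative to the start site. The Socs1 window has a pair of matches to the interferon response core, GAAAGAGAAA at position -83 and GAAACCGAAA at position -77, which share bases with each other. The Stat2 window has the same motif on the opposite strand, TTTCAGTTTC at position -222, followed by a palindrome with 4 spacer bases, TTCCCTAGAA, at position -210. No match to these 3 motifs was found in the windows of Stat3, Stat5a, Stat5b or Stat6, and the second of the windows of Stat4 held GAAAGTGAAA at position -97. A loose NF-kB motif (GGG, 5 bases of any kind and CC), not marked in capitals, was present in 50.8% of all windows and in a window of each matched member except Stat3. The matches describe the letters of these windows and no binding was measured.

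Library totals ranged from 20749747 to 31875723 counts, so that 1 CPM (TMM-scaled CPM, a count relative to library size, is the unit of all levels below) corresponded to 20.7 to 31.7 counts. The targeted gene, Chuk, had 28.9, 24.4 and 34.9 CPM in the knock-out libraries and 101, 106 and 95.7 CPM in the wild-type libraries, a 3.42-fold fall to 29.4 ± 5.28 from 101 ± 5.21 CPM (mean ± SD, n = 3 each as throughout; adjusted p = 8.6e-08 by edgeR's quasi-likelihood test with Benjamini-Hochberg adjustment). The genotypes differed widely in other respects. The test, at a threshold of 0.05, called 57.4% of the 13759 genes that entered it, 30.4% as higher and 27% as lower in knock-out libraries. Xist had 857 to 1480 CPM in the wild-type libraries and 1 to 3 counts in each knock-out library, and 4 Y-linked genes together had 172 to 208 CPM in knock-out libraries and at most 1 count in each wild-type library, so genotype and sex cannot be told apart in any result below. Mitochondrial genes held 2.15% to 3.46% of the knock-out counts and 6.18% to 7.58% of the wild-type counts, and their part in the results was not tested. Knock-out replicate 2 stood apart from the other knock-out libraries (chi-square per degree of freedom 36.4 and 37, against 5.64 between the other two). The labels call the libraries biological replicates without saying whether they are separate mice or cultures, so p-values here reflect no more than the spread among these libraries, possibly a technical one. In bulk RNA, fewer cells of a type and less RNA per cell cannot be told apart.

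Epithelial markers were high in every library (8 genes summing to 10400 to 12200 CPM in knock-out libraries and 8140 to 8760 CPM in the wild type, none at 0). The keratin genes Krt19 (2.69-fold), Krt8 (1.35-fold) and Krt18 (1.32-fold) were higher in the knock-out. Cdx2 (9.39-fold), Epcam (2.22-fold), Vil1 (1.85-fold) and Cldn7 (1.59-fold) were lower, and Cdh1 did not pass the test. Of 7 T and NK cell markers all but Ptprc were at 0 in all libraries (summed 0.374 to 0.549 CPM in knock-out libraries and at most 0.0743 CPM in the wild type). The B cell marker Ms4a1, the macrophage markers Adgre1, C1qa and C1qb, and the fibroblast markers Col3a1, Pdgfrb, Dcn and Lum were also at 0. The summed level of 8 myeloid markers was 24.5 to 25.2 CPM in knock-out libraries and 4.95 to 8.42 CPM in the wild type, with Csf1r and Cd68 higher in the knock-out, which made up most of the knock-out sum. Ly6g did not pass the test (edgeR adjusted p = 0.63). Below the filter, Itgam had fewer counts in the knock-out (8 against 46) and S100a8 had 5 against 0. The summed level of 6 tuft cell markers was 76 to 109 CPM in knock-out libraries and 9.74 to 11.9 CPM in the wild type, a difference carried by Avil (92.6 ± 16.8 against 4.66 ± 0.457 CPM). Other tuft cell markers were lower in the knock-out, Trpm5 by 17.9-fold (edgeR adjusted p = 2.8e-05) and Pou2f3 by 1.71-fold (0.037), and Dclk1 did not pass the test (0.325 ± 0.41 against 0.797 ± 0.243 CPM). That of 5 endothelial markers was 0.299 to 0.442 CPM in knock-out libraries and 9.93 to 14.5 CPM in the wild type, with Kdr and Emcn at 0 and the difference carried by Tek (0.274 ± 0.145 against 11.9 ± 2.46 CPM), while Pecam1 and Cdh5 had at most 7 counts per genotype. That of 5 mast cell markers was at most 0.0968 and 3.08 to 7.7 CPM, with Cpa3, Fcer1a and Tpsb2 at 0 and nearly all wild-type counts from Kit. The part of these differences in the results below was not tested.

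Of the 9 genes, 8 passed the filter on low counts, and 2 of those passed the test. Socs2 fell and Socs3 rose in the knock-out. Socs1 did not pass the test, and nor did any of the 5 STAT genes tested. The share called among the members, 25%, was below the 57.4% of all genes tested, and the median absolute log2 fold change of the members was 0.21, against 0.46 for all genes tested. The genotypes did not overlap for 5 of the 8 genes (Stat3, Stat5b, Socs1, Socs2 and Socs3), beside 63.1% of all genes tested.

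**Figure D1:**
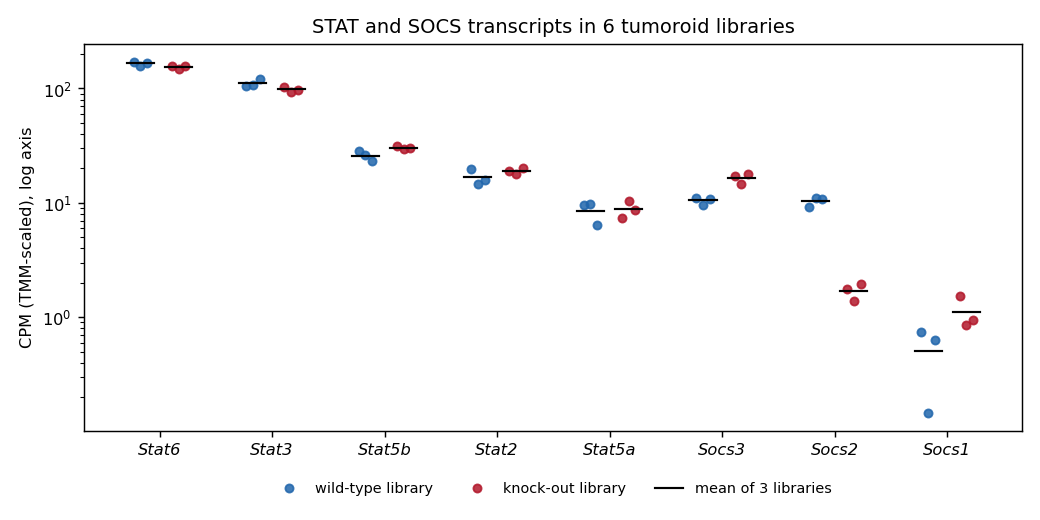
Level in each library of the 8 genes with counts, in TMM-scaled CPM on a log scale; points are libraries and horizontal lines are means of 3 libraries per genotype; Stat4, without a count, is not drawn. Socs2 lies at 1.38 to 1.94 CPM in knock-out libraries and 9.27 to 11 CPM in the wild type, Socs3 at 14.7 to 18 and 9.64 to 11 CPM, and for each STAT gene the points of both genotypes lie close together.

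Socs2 encodes the SOCS protein best known for restraining growth hormone signalling through Stat5b. Socs2 (ENSMUSG00000020027, GRCm38 chromosome 10, 95385362 to 95417180, minus strand) had 1.77, 1.38 and 1.94 CPM in knock-out replicates 1 to 3 and 9.27, 11 and 10.8 CPM in wild-type replicates 1 to 3. All knock-out values lay below all wild-type values, and the spread within each genotype was small beside the gap. The fall was 6-fold, from 10.3 ± 0.934 to 1.7 ± 0.282 CPM (log2 fold change -2.59, SE 0.24, 95% interval -3.11 to -2.06, edgeR adjusted p = 6.9e-07). Without knock-out replicate 2 it was 5.64-fold (adjusted p = 4.9e-08). Of all genes tested, 11.4% had a larger absolute log2 fold change. Of the 50-base stretches of Socs2, 4.53% also occur in other genes, mostly in Gm9847 (400 of 433), so a small part of its counts could depend on how reads that map to several places were handled.

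Socs3 encodes the inhibitor that binds Il6st (gp130), the shared receptor of the Il6 family, and limits Stat3 signalling. Its levels (ENSMUSG00000053113, chromosome 11, 117966079 to 117970047, minus strand) were 17.2, 14.7 and 18 CPM in knock-out libraries and 11, 9.64 and 10.9 CPM in the wild type. Again the genotypes did not overlap, in the direction opposite to Socs2. The rise was 1.58-fold, from 10.5 ± 0.749 to 16.6 ± 1.71 CPM (log2 fold change 0.66, SE 0.14, 95% interval 0.35 to 0.97, edgeR adjusted p = 0.0016), and 1.64-fold without knock-out replicate 2 (adjusted p = 3e-04). A change larger than this was measured for 37.7% of the genes tested.

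Socs1 encodes the inhibitor of JAK kinases that acts mainly on interferon receptors. It was scarce (ENSMUSG00000038037, chromosome 16, 10782240 to 10785536, minus strand), with 48, 23 and 29 counts in knock-out libraries and 22, 3 and 17 counts in the wild type, or 1.52, 0.861 and 0.936 CPM against 0.737, 0.145 and 0.631 CPM. All knock-out libraries lay above all wild-type libraries, but the lowest knock-out value was close to the highest wild-type one. The fitted ratio was 2.06 with a 95% interval of 0.926 to 4.57 and did not pass the test (log2 fold change 1.04, SE 0.53, edgeR adjusted p = 0.099). At these counts the interval includes both no difference and a ratio above that of Socs3.

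**Figure D2:**
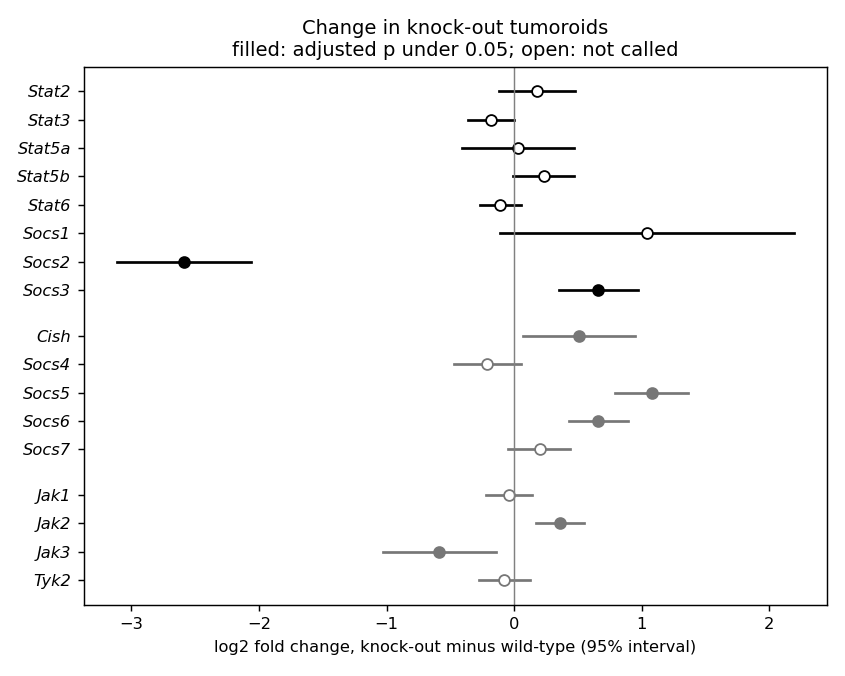
Log2 fold change of knock-out against wild type for the 8 members that passed the filter on low counts (black) and, in grey, 5 other SOCS family genes and the 4 JAK kinases; horizontal lines are 95% intervals from the edgeR fit (n = 3 libraries per genotype) and filled circles passed an adjusted p of 0.05. The intervals of Socs2 (-3.11 to -2.06) and Socs3 (0.35 to 0.97) lie away from 0, and those of the 5 STAT genes include 0 or end at it.

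Among the STAT genes, Stat3 mediates the response to the Il6 and Il22 families. Stat3 (ENSMUSG00000004040, chromosome 11, 100885098 to 100939540, minus strand) had 104, 93.5 and 97.3 CPM in knock-out libraries and 106, 107 and 120 CPM in the wild type. The knock-out libraries were all lower, by little more than the spread within a genotype. The log2 fold change was -0.18 (SE 0.08, 95% interval of the knock-out to wild-type ratio 0.781 to 1, edgeR adjusted p = 0.088) and did not pass the test, except under upper-quartile scaling (log2 fold change -0.23, adjusted p = 0.026).

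Stat5b, the main mediator of growth hormone signalling, showed a small difference in the other direction. Its levels (ENSMUSG00000020919, chromosome 11, 100780731 to 100850724, minus strand) were 31.4, 29.5 and 30.4 CPM in knock-out libraries and 28.2, 26.1 and 23.4 CPM in the wild type. All knock-out libraries were higher, but the ratio of 1.17 had a 95% interval of 0.996 to 1.38 (edgeR adjusted p = 0.088). Stat5a, its close relative, which is best known for prolactin signalling, overlapped between the genotypes. Stat5a (ENSMUSG00000004043, chromosome 11, 100859351 to 100885169, plus strand) had 7.32, 10.3 and 8.65 CPM in knock-out libraries and 9.51, 9.78 and 6.39 CPM in the wild type, with a log2 fold change of 0.03 and a 95% interval of the ratio of 0.75 to 1.39 (edgeR adjusted p = 0.91).

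Stat6, which acts downstream of Il4 and Il13, was the most abundant of the 6 STAT genes per length. Stat6 (ENSMUSG00000002147, chromosome 10, 127642986 to 127660957, plus strand) had 156, 149 and 157 CPM in knock-out libraries and 172, 157 and 168 CPM in the wild type. The highest knock-out values and the lowest wild-type value met, and the ratio had a 95% interval of 0.831 to 1.04 (log2 fold change -0.11, SE 0.07, edgeR adjusted p = 0.23). Stat2, which joins Irf9 in the interferon response, had (ENSMUSG00000040033, chromosome 10, 128270559 to 128292849, plus strand) 19, 17.8 and 20 CPM in knock-out libraries and 19.6, 14.5 and 15.9 CPM in the wild type. Its ranges overlapped (log2 fold change 0.18, 95% interval of the ratio 0.917 to 1.4, edgeR adjusted p = 0.3).

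Stat4 (ENSMUSG00000062939, chromosome 1, 51987148 to 52107189, plus strand) had 0 counts in all 6 libraries. A count of 0 over the pooled libraries of a genotype allows up to 3 counts, or 0.0336 CPM in knock-out libraries and 0.0387 CPM in the wild type, for counting error only. Stat4 shares 21.7% of its 50-base stretches with the gene model Gm28177. None of the 5 STAT genes tested passed by edgeR with TMM scaling, by DESeq2's Wald test or by limma voom. In that edgeR fit none had an unadjusted p under 0.05 (the smallest were 0.054 for Stat3 and 0.055 for Stat5b). Of these 5, the widest interval, that of Stat5a, reaches down to a ratio of 0.75, and the highest upper bound is the 1.4 of Stat2.

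Levels of different genes were compared as CPM per kilobase of exon. In the knock-out the order was Stat6 at 34.9 ± 0.989, Stat3 at 10.3 ± 0.57, Socs3 at 5.76 ± 0.592, Stat5b at 5.49 ± 0.167, Stat2 at 3.2 ± 0.191, Stat5a at 1.23 ± 0.206, Socs1 at 0.38 ± 0.123 and Socs2 at 0.178 ± 0.0296 CPM per kb. Only Socs3 and Stat5b overlapped among neighbours in that order. In the wild type the order was Stat6 at 37.6 ± 1.8, Stat3 at 11.7 ± 0.789, Stat5b at 4.68 ± 0.441, Socs3 at 3.63 ± 0.259, Stat2 at 2.81 ± 0.443, Stat5a at 1.2 ± 0.264, Socs2 at 1.09 ± 0.098 and Socs1 at 0.173 ± 0.108 CPM per kb, and of the neighbours Stat5a and Socs2 overlapped. Per kilobase, Socs2 thus ranked above Socs1 in the wild type and below it in the knock-out. Socs3 was the most abundant SOCS gene of the 3 in both by this measure. The exchange depends on the length used, the union of all annotated exons (9.53 kb for Socs2 and 2.91 kb for Socs1). In CPM, Socs2 had the higher mean in both genotypes (1.7 against 1.1 in the knock-out, where the libraries overlapped, and 10.3 against 0.504 in the wild type).

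Stat6 and Stat3 held most of the STAT transcript level. Of the summed CPM per kb of the 6 STAT genes, Stat6 made up 63.3% ± 0.379 in knock-out libraries and 64.9% ± 0.525 in the wild type, and Stat3 18.7% ± 0.648 and 20.1% ± 1.41. The share of Stat5b was 9.96% ± 0.136 and 8.08% ± 0.762, that of Stat2 5.8% ± 0.226 and 4.83% ± 0.592, and that of Stat5a 2.23% ± 0.437 and 2.08% ± 0.492. The sum itself was 56.2, 53.4 and 55.9 CPM per kb in knock-out libraries and 59.9, 55.4 and 58.6 CPM per kb in the wild type, and these ranges overlapped. The 3 SOCS genes summed to 6.67, 5.53 and 6.74 against 5.02, 4.54 and 5.11 CPM per kb, a sum led by Socs3.

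**Figure D3:**
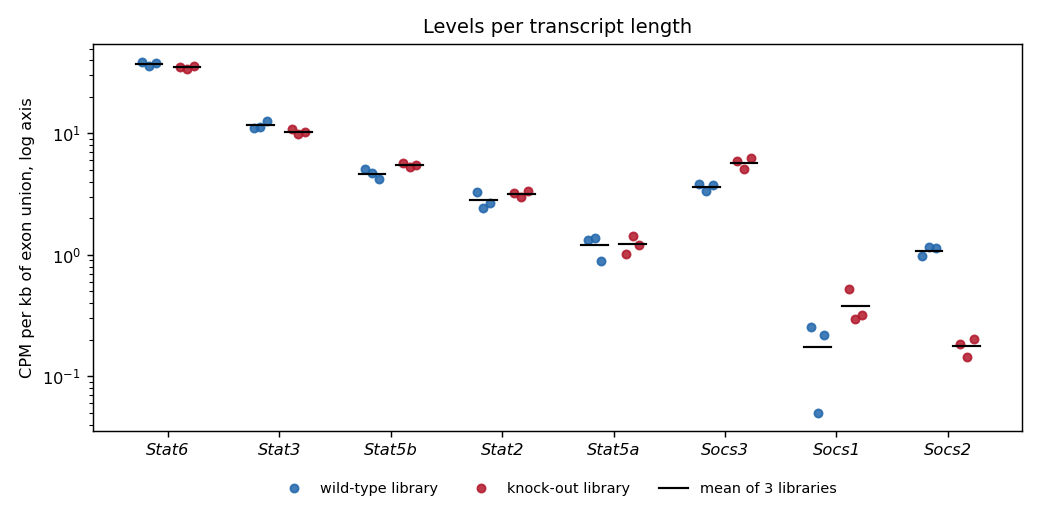
Level of the 8 genes with counts per kilobase of exon (CPM per kb, log scale), with libraries as points and means of 3 libraries per genotype as horizontal lines. Stat6 stands highest at 34.9 ± 0.989 in knock-out libraries and 37.6 ± 1.8 in the wild type. Socs2 and Socs1 exchange their order between the genotypes on this scale, but their means in CPM do not.

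Stat5b, Stat5a and Stat3 lie next to each other on chromosome 11. Stat5b and Stat5a are 8626 bp apart, and Stat5a and Stat3 share 72 bp at their 3′ ends on opposite strands. Whether the counting used strand is not given in the sources used here, so reads from those 72 bp could not be assigned with certainty to either gene. The coding sequences of Stat5a and Stat5b are identical at 90.8% of aligned positions, with a longest identical run of 324 bases, whereas the other pairs of STAT genes are 56.5% to 64.6% identical. Of the 50-base stretches of the transcripts, 8.21% of those of Stat5a and 11% of those of Stat5b occur in the other gene, so their split is uncertain to that extent.

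Stat5a made up 18.9%, 25.8% and 22.2% of the counts of Stat5a and Stat5b together in knock-out libraries and 25.2%, 27.2% and 21.5% in the wild type. The shares overlapped, with means of 22.3% ± 3.43 and 24.6% ± 2.92. The difference of -2.34 percentage points gave p = 0.5 in an exact two-sided permutation test, in which 3 against 3 libraries cannot go below 0.1.

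The genes nearest to Socs2 in their pattern over the 6 libraries were Fam118a, Sort1, which encodes the sorting receptor sortilin, and Phf19, which encodes a protein associated with the Polycomb repressive complex. Likeness was the Euclidean distance between centred log2 CPM profiles over 10373 genes that averaged 5 CPM or more. Fam118a had a distance of 0.15, with 6.84 ± 1.13 CPM in knock-out libraries and 37.7 ± 2.22 CPM in the wild type. Sort1 had a distance of 0.25 (53.6 ± 6.12 and 270 ± 4.88 CPM) and Phf19 one of 0.26 (3.5 ± 0.538 and 17.1 ± 0.164 CPM). In all 3, each knock-out library lay below each wild-type library, as for Socs2, which follows from choosing them by its profile. The genotypes did not overlap for 63.1% of all genes tested.

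The rest of the pathway was read from lists of genes by role. The share called was 81.8% of the tested ligands, 66.7% of receptors, 50% of JAK kinases and 50% of other inhibitors. For the genes of the SOCS box ligase it was 25%. Over all genes tested it was 57.4%, with 30.4% higher and 27% lower. Of 34 ligands, 18 were at 0 in all libraries, among them Osm, Il22, Il4, Il13, Ifnb1, Ifng, Ifnl2 and Ifnl3, and 11 passed the filter, of which 7 were higher and 2 lower in the knock-out (median log2 fold change 2.46, against 0 over all genes tested). Il11, Il24, Csf2, Csf3 and Thpo passed the filter only through their knock-out libraries, and Il23a only through its wild-type libraries. Passing in that way made a call likely, so the 81.8% and the median of 2.46 say little about the ligands as a set. The Il6 family ligands Clcf1, Lif and Il11 were higher, Cntf did not pass the test (log2 fold change -0.67, edgeR adjusted p = 0.38), and Ctf1, below the filter, had 3, 0 and 3 counts in knock-out libraries and 60, 7 and 27 in wild-type libraries. Clcf1, a ligand of the Cntf receptor complex, had 42.9, 57.7 and 45.6 CPM in knock-out libraries and 3.85, 5.81 and 3.49 CPM in the wild type, an 11.4-fold rise (edgeR adjusted p = 1.1e-08). Lif, a cytokine that acts through Lifr and Il6st, had 43.7, 40.9 and 46.1 CPM in knock-out libraries and 17.2, 20.3 and 18.3 CPM in the wild type, a 2.36-fold rise (adjusted p = 1e-06). Il24, a cytokine of the Il10 family, rose 51.8-fold, from 0.0893 ± 0.155 to 5.51 ± 1.46 CPM (95% interval 8.62 to 311, adjusted p = 1.5e-06). All 8 wild-type counts of Il24 were in wild-type replicate 1, so without that library the fold has no measured denominator; it was 34.3-fold without wild-type replicate 3 and 109-fold by limma voom. Il11, also of the Il6 family, stayed below 1 CPM and rose 5.51-fold, from 0.139 ± 0.134 to 0.878 ± 0.11 CPM (adjusted p = 0.0057, and 9.9-fold without wild-type replicate 1). Csf2 (8.55-fold, and 16.4-fold without wild-type replicate 1 and 12.9-fold by limma voom), Thpo (6.35-fold) and Csf3, which had no wild-type count and was at least 35.5-fold higher at 1.37 ± 0.268 CPM, also rose. Il23a, a subunit of interleukin 23, fell 6.98-fold and Il15 fell 2.14-fold. Il6 itself had 5 counts in 1 knock-out library and none elsewhere, below the filter.

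Of 40 receptor genes, 11 were at 0 in all libraries, among them Cntfr, Csf2rb and Il7r. Of the 21 that passed the filter, 10 were higher and 4 lower (median log2 fold change 0.41). Il5ra passed it only through its knock-out libraries. Receptor chains of 1 family moved in opposite directions. Il6ra, the chain that binds Il6, had 18.1, 20.8 and 20.2 CPM in knock-out libraries and 0.77, 1.07 and 0.446 CPM in the wild type, a 26.5-fold rise (edgeR adjusted p = 7.9e-09). Osmr, which binds oncostatin M, rose 7.18-fold, from 0.47 ± 0.362 to 3.09 ± 0.278 CPM (adjusted p = 0.00011, and 11.5-fold without wild-type replicate 2). Lifr, with which Lif signals, had 1.01, 1.68 and 1.97 CPM in knock-out libraries and 12.3, 11.8 and 12 CPM in the wild type, a 7.76-fold fall (adjusted p = 3.1e-07). Il6st, the chain these receptors share and the one Socs3 binds, fell 1.65-fold, from 89.1 ± 4.54 to 53.7 ± 10.8 CPM (adjusted p = 0.00039). Il11ra1 did not pass the test at 1.37 ± 0.225 and 2.15 ± 0.461 CPM (adjusted p = 0.12).

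The receptor chains for interferon gamma also moved apart. Ifngr1, the binding chain, was 1.94-fold higher at 240 ± 4.76 against 124 ± 8.08 CPM (edgeR adjusted p = 3.8e-07), and Ifngr2, the signalling chain, was 2.37-fold lower at 43.9 ± 2.09 against 104 ± 8.57 CPM (adjusted p = 1.8e-07). Il4ra, upstream of Stat6, was 1.88-fold higher at 85.7 ± 2.03 against 45.7 ± 1.45 CPM, and its partner Il13ra1 did not pass the test. Il5ra had 12.2 ± 1.13 CPM in knock-out libraries and 1 count in all wild-type libraries (ratio 946, counting interval 169 to 37400, adjusted p = 4.3e-08). Crlf2, Ghr, Il3ra, Csf2ra and Ifnlr1 were higher as well, by 1.47-fold for Ifnlr1 to 5.94-fold for Ghr, the growth hormone receptor, and Il15ra was 2.29-fold lower. Ifnar1, Ifnar2, Il10rb, Il20rb and Il22ra1 did not pass the test, although Ifnar1 and Il22ra1 passed without knock-out replicate 2 (adjusted p = 0.0053 and 0.0062) and Il22ra1 also without wild-type replicate 1 (0.048).

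**Figure D4:**
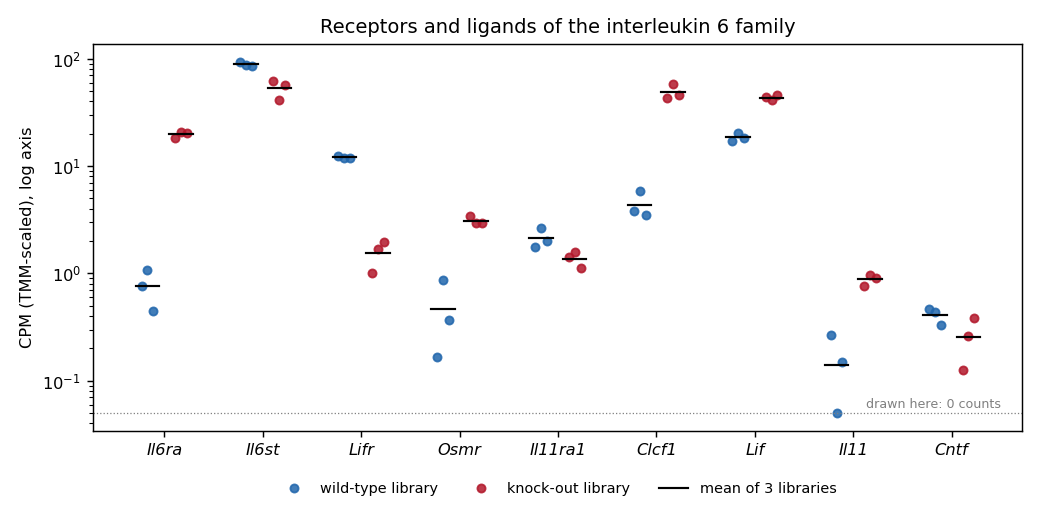
Levels of Il6 family ligands and receptor chains in each library (TMM-scaled CPM, log scale), with points for libraries and horizontal lines for means of 3; points on the dotted line had 0 counts. Clcf1, Lif, Il11, Il6ra and Osmr are higher in all knock-out libraries, and Lifr and Il6st are lower in all knock-out libraries.

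Of the 4 JAK kinases, which phosphorylate the STAT proteins, 1 was higher and 1 lower (median log2 fold change -0.06). Jak2 had 84.5, 76.9 and 85.9 CPM in knock-out libraries and 62.8, 68.6 and 61.7 CPM in the wild type, a 1.28-fold rise (edgeR adjusted p = 0.0032). Jak3 was 1.5-fold lower at 8.3 ± 2.29 against 12.5 ± 1.89 CPM (adjusted p = 0.026), but its genotypes overlapped, and the call was lost without knock-out replicate 1 (0.095), knock-out replicate 3 (0.11), wild-type replicate 2 (0.1) or wild-type replicate 3 (0.058). Jak1 at 201 ± 15.3 and 207 ± 11.2 CPM (adjusted p = 0.7), and Tyk2 at 57.1 ± 3.89 and 60.5 ± 3.88 CPM (adjusted p = 0.46) did not pass the test.

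The other inhibitors of the pathway comprised the remaining SOCS family members, PIAS proteins, phosphatases and the adaptor Sh2b3. All 14 were tested, 5 were higher and 2 lower (median log2 fold change 0.18). Within the SOCS family, Socs5 rose 2.11-fold, from 26.7 ± 4.06 to 56.4 ± 6.8 CPM (edgeR adjusted p = 1.7e-05), and Socs6 rose 1.58-fold, from 44.9 ± 3.71 to 71 ± 8.13 CPM (adjusted p = 2e-04). Cish, the family member known as a Stat5 target, was 1.42-fold higher at 7.73 ± 1.35 against 5.33 ± 0.681 CPM (adjusted p = 0.045). That call was lost without any 1 of 5 libraries, all but knock-out replicate 1 (adjusted p 0.06 to 0.17), and under upper-quartile scaling (0.077) and limma voom (0.06). Socs4 and Socs7 did not pass the test (adjusted p = 0.16 each), although Socs4 was lower without knock-out replicate 1 (0.045) and Socs7 higher without knock-out replicate 2 (0.016).

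The phosphatases moved in both directions. Ptpn11, which encodes Shp2, rose 1.8-fold, from 202 ± 4.53 to 364 ± 53.6 CPM (edgeR adjusted p = 1.5e-05), and Ptpn6, which encodes Shp1, rose 2.06-fold, from 10.2 ± 1.34 to 20.9 ± 3.6 CPM (adjusted p = 0.00017). Ptpn2, which dephosphorylates JAK kinases and STAT proteins, fell 1.4-fold, from 55.8 ± 2.36 to 39.8 ± 2.89 CPM (adjusted p = 0.00071). Pias4 was 1.32-fold lower (adjusted p = 0.01, and 0.057 without wild-type replicate 3). Of the 4 genes of the ubiquitin ligase that binds the SOCS box, Eloc was 1.21-fold lower at 71 ± 4.31 against 86 ± 4.18 CPM (adjusted p = 0.013), a call lost without knock-out replicate 1 (0.072) or wild-type replicate 3 (0.062). Cul5, Elob and Rnf7 did not pass the test.

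**Figure D5:**
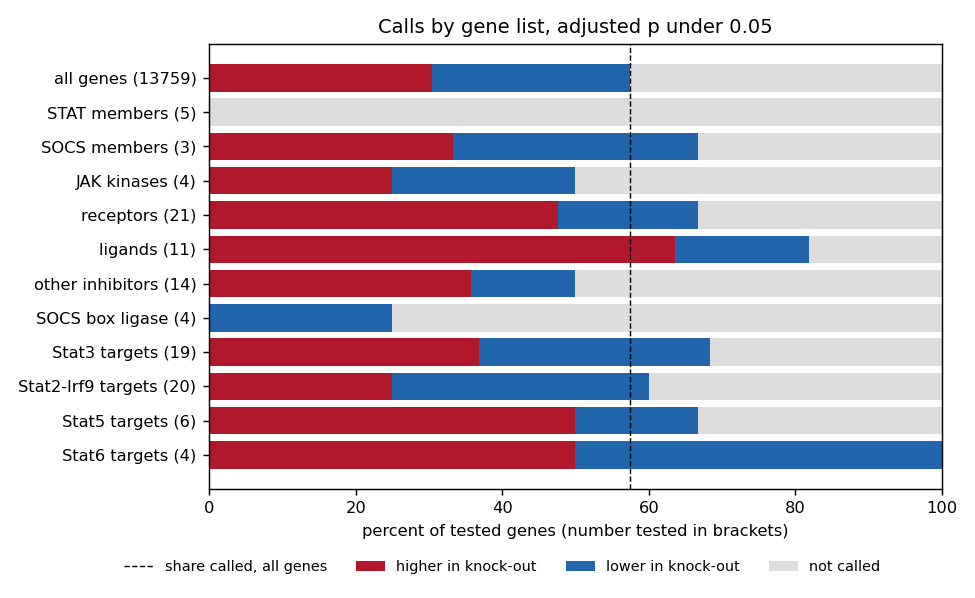
Percent of the tested genes of each list that were higher, lower or not called in the knock-out (edgeR, adjusted p under 0.05), with the number tested in brackets; the dashed line is the 57.4% called among all genes. Ligands (7 higher, 2 lower) and receptors (10 higher, 4 lower) have more genes higher than lower, and none of the 5 STAT genes tested was called. Several ligands, and some genes of other lists, passed the filter on low counts only through the genotype where they were high.

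Genes known as targets of the STAT factors moved in both directions in each list, as did all genes tested (30.4% higher and 27% lower). The share called was 68.4% for Stat3 targets, 60% for Stat2-Irf9 targets and 66.7% for Stat5 targets. For the 4 Stat6 targets tested it was 100%, and for all genes tested 57.4%. Alox15 and Arg1 of the Stat6 list passed the filter only through the genotype where they were high, which made a call likely. The same holds for Reg3b, Reg3g, Hp, Oas3, Usp18 and Ifi44 in the other lists. These shares therefore say little about the targets as sets. Of 25 Stat3 targets, 19 were tested, 7 were higher and 6 lower (median log2 fold change 0.28). Bcl2l1, a survival gene, rose 2.66-fold, from 131 ± 6.83 to 348 ± 8.9 CPM (edgeR adjusted p = 7.8e-09), and Pim1, Junb, Ccnd1, Cebpb, Timp1 and Mcl1 rose as well. The antimicrobial lectin genes fell to near 0, Reg3b with 3 knock-out counts against 610 ± 80.3 CPM in the wild type and Reg3g from 383 ± 50.3 to 0.0447 ± 0.0488 CPM (adjusted p = 6.8e-15). Vegfa, Cebpd, Hp and Birc5 also fell. Bcl3, Fos, Pim3, Myc, Muc1 and Hif1a did not pass the test.

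Of 24 genes induced through Stat2 and Irf9, 20 were tested, 5 were higher and 7 lower (median log2 fold change 0.09). Mx1 rose 16.8-fold, from 0.244 ± 0.222 to 4.66 ± 1.13 CPM (edgeR adjusted p = 1.5e-05, and 26.8-fold without wild-type replicate 1 or by limma voom), Oasl1 rose 2.58-fold, from 5.6 ± 0.59 to 14.6 ± 1.43 CPM (adjusted p = 1.8e-05), and Oas3, Usp18 and Ifi44 rose too. Ifih1, which encodes the RNA sensor Mda5, fell 2.1-fold, from 22.5 ± 2.32 to 10.7 ± 0.427 CPM (adjusted p = 2.3e-05), and Ifit2, Cmpk2, Oasl2, Irf7, Rtp4 and Ifi35 fell as well. Irf9, the partner of Stat2, did not pass the test at 15 ± 0.576 and 13.8 ± 0.107 CPM (adjusted p = 0.48).

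Of 8 Stat5 targets, 6 were tested, 3 were higher and 1 lower (median log2 fold change 0.24). Pim1, a survival kinase gene that is also on the Stat3 list, rose 2.43-fold, from 22.5 ± 1.57 to 55 ± 1.22 CPM (edgeR adjusted p = 2.5e-07). Bcl6, a repressor gene, rose 2.3-fold, from 18.8 ± 2.02 to 42.7 ± 6.03 CPM (adjusted p = 8.6e-06), and Cish is given above. Ccnd2 fell 1.62-fold, from 745 ± 39.5 to 459 ± 89.7 CPM (adjusted p = 0.00035). Bcl2 and Pim2 did not pass the test.

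Of 13 Stat6 targets, 6 were at 0 in all libraries and 4 were tested, with 2 higher and 2 lower (median log2 fold change -0.28). Clca1, a secreted product of goblet cells, had 1.26, 0.487 and 0.678 CPM in knock-out libraries and 13.9, 22.9 and 15.7 CPM in the wild type, a 20.7-fold fall (edgeR adjusted p = 2.1e-07). Arg1 fell 5.9-fold, and Alox15 and Mrc1 rose 13.7-fold (8.85-fold without knock-out replicate 2) and 4.02-fold (6.04-fold without wild-type replicate 2).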

How the data were processed

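RNA of 6 tumoroid libraries, 3 per genotype, was polyA-selected with a stranded kit, per the labels' protocols. Reads were aligned with STAR to GRCm38, per the submitters' processing notes; how reads were counted (program, strand setting, annotation) is not given in the sources used here. Deposited values are whole-number counts per gene, 49585 identifiers per library, of which GENCODE M21 named 49326. Genes were tested with edgeR 4.0.16 in R 4.3.3 (quasi-likelihood, genotype only, TMM scaling, filterByExpr with minimum count 10 and total 15), two-sided, with Benjamini-Hochberg adjustment over all 13759 genes and a threshold of 0.05. Standard errors and 95% intervals come from the fit. A genotype without a count was bounded at 3 pooled counts; ratios of genes with 1 to 3 counts have exact 95% counting intervals. Intervals and bounds cover counting error only where so named.

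The members and lists were chosen with earlier results of these data known. Named genes are the members, Chuk, the JAK kinases, per list up to 3 tested genes with the smallest adjusted p and those needed to spell out a count of 5 or fewer, and the 3 nearest to Socs2. Others, such as Il11, Osmr, Il6st, Il4ra, Socs6 and Cish, were chosen after their values were seen. Coding sequences were aligned with Biopython 1.88. Each pair of libraries was compared by chi-square (5.64 to 37 per degree of freedom within genotypes), so none was merged. The test was run on simulated data first. Alternatives were scaling by DESeq2 1.42.0 size factors, upper quartile or library size, no filter or 1 CPM in 3 libraries, DESeq2's Wald test, voom of limma 3.58.1, a replicate term, leaving out each library, and, chosen after seeing the data, the legacy edgeR fit.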

Additional observations from a re-analysis of the deposited data

How the results depend on the processing

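Over 15 alternatives, Socs2 stayed lower and past the threshold in all 15 (log2 fold change -2.69 to -2.5) and Socs3 stayed higher and past it in all 15 (0.6 to 0.71). Stat3 passed in 1 (upper-quartile scaling), where 2 members were lower and none of the other alternatives moved the members' count. Socs1 passed in 0 of the 14 that tested it (adjusted p 0.081 to 0.34); it had too few counts for the 1 CPM filter. Stat5a changed sign under upper-quartile scaling (-0.03), without knock-out replicate 2 (-0.12) and without wild-type replicate 3 (-0.15), over a leave-one-out range of -0.15 to 0.15, and Elob without knock-out replicate 1 (0.03) and wild-type replicate 3 (0.08), none past the threshold. The fold of Il13ra1, at 0, took either sign. With the 1 CPM filter, which tests fewer genes, 1 ligand was lower, 2 Stat2-Irf9 targets were higher, and 1 Stat6 target was higher and 1 lower. Leaving out 1 library at a time, lower calls ranged from 0 to 1 for JAK kinases and for the SOCS box ligase and from 1 to 3 for the other inhibitors, and the calls over all genes from 7077 to 8902. The replicate numbers did not pair the libraries (correlations of same-numbered deviations 0.25, -0.2 and -0.37). With a replicate block, 7432 genes passed, Socs2 (adjusted p = 1.1e-05) and Socs3 (0.0035) among them, and Cish did not (0.077). Where no value above shows it, the cause of a change was not tested. Depth limits Socs1, Stat4 and the scarcest cytokines.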
